A study of Mus musculus with 30 samples.

Results

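Chromosomal windows around liver genes for secreted plasma proteins were examined for insertions of therapeutic transposons. The bounds of the windows were set by gene location, but the windows were chosen with earlier results of these data known. They hold the fibrinogen genes Fga, Fgb and Fgg (chr3:82850001-83100000), the serum amyloid A genes Saa1 to Saa4 (chr7:46300001-46500000), the orosomucoid genes Orm1 to Orm3 (chr4:63200001-63400000), Hp (chr8:110200001-110400000), Ttr (chr18:20700001-20900000) and Trf (chr9:103000001-103200000), all in build GRCm39. Together the 6 windows cover 1.25 Mb and held 1900 of the 2181734 site records of the study, 1329 of them in livers treated with piggyBac (PB) and 571 in livers treated with Sleeping Beauty (SB). The flanking 1 Mb on each side of every window held 6470 PB and 4870 SB sites.

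All animals were Fah knockout mice, which lack the enzyme that completes the breakdown of tyrosine and model tyrosinemia type I. A gene therapy vector was delivered in vivo as a PB transposon to the 17 mice of the PB group or as an SB transposon to the 13 mice of the SB group, and genomic DNA of the whole liver was taken at the end of monitoring. Insertions were read by streptavidin-based enrichment sequencing, which amplifies the junction of transposon and genome. The labels give no age, sex, dose or untreated liver, so there is no background measured in untreated animals. Each liver was counted as 1 replicate. Whole livers were lysed, so a site is not assigned to a cell type. PB livers held 15780 to 119816 autosomal sites and SB livers 4670 to 115635. PB livers 13 to 17 (15780 to 39142) and SB liver 13 (4670) were the shallowest of their groups. The labels do not say how livers above number 12 differ.

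Secreted plasma proteins are made mainly by hepatocytes and are among the most abundantly transcribed genes of the liver. Fibrinogen, serum amyloid A, orosomucoid and haptoglobin are acute-phase proteins, whose genes are induced by inflammatory cytokines, while transthyretin and transferrin are carriers whose levels tend to fall in the acute phase. PB transposase inserts at TTAA and SB transposase at TA, and hepatocytes that regain Fah can repopulate the liver of these mice.

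The promoter sequences of the fibrinogen genes are shown because PB needs its target letters in a locus where its insertions were dense. They are RefSeq sequences of build GRCm38.p6, from 250 bases before to 50 bases after the start of the gene, written 5′ to 3′ on the strand of the gene, with TTAA in capitals. A promoter of Saa4 and one of Saa1 are set beside them as examples with and without TTAA.
Fgg: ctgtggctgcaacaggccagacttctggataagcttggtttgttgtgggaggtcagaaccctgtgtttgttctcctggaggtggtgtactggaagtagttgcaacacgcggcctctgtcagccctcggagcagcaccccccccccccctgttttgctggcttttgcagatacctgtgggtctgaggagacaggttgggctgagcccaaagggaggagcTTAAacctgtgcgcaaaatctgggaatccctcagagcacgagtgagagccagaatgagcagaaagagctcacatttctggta
Fga: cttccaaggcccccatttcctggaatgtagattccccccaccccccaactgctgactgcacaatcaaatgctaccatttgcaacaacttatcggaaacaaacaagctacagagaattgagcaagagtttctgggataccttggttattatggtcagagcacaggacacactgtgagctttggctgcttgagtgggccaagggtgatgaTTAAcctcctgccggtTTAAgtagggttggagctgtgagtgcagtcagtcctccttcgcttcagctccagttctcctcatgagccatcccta
Fgb: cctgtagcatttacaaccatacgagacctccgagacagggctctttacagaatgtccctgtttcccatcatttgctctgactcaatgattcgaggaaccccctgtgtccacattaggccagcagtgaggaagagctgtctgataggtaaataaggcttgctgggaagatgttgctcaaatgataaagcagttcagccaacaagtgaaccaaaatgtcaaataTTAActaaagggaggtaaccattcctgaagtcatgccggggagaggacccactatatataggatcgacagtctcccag
Saa4: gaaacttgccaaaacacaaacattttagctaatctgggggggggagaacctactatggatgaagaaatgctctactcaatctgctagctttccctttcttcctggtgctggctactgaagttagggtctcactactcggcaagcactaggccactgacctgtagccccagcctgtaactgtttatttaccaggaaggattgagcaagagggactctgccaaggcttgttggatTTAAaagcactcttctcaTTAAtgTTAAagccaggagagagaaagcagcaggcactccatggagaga
Saa1: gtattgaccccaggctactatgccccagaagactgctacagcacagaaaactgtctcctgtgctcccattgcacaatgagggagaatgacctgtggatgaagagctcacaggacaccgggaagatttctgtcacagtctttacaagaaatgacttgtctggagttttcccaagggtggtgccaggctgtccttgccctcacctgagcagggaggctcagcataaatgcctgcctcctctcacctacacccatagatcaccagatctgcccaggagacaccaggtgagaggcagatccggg
Of the 13 genes named for the windows, 9 had a promoter in the RefSeq table. TTAA, which reads the same on both strands, was found in 4 of these 9 (Fgg, Fga, Fgb and Saa4) and in 52.4% of all 32851 promoters of 300 bases. Fga held 2 copies, Fgg and Fgb 1 copy each and Saa4 3 copies. The dinucleotide TA, which includes the TA inside every TTAA, occurred 6 times in Fgg, 11 times in Fga and 17 times in Fgb. A TA was present in 99.1% of all promoters. These sequences belong to another build than the insertion sites, so no insertion was placed in them, and the number of TTAA and TA in the windows was not analysed here.

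Insertion density was compared first between the vector systems. Density is given as sites per Mb per 10000 autosomal sites of a liver, which takes out the number of sites mapped in each liver. PB inserted more densely than SB in 5 of the 6 windows, all but that of the Orm genes, and SB more densely than PB in the Orm window (edgeR quasi-likelihood test over 11829 windows, Benjamini-Hochberg adjusted p under 0.05). Among all windows of 200 kb tested, 12.9% were called higher and 26% lower in PB. The median log2 difference (PB minus SB) of all windows was -0.36, against -0.22 with edgeR's TMM scaling and -0.67 with DESeq2. Of the windows called, 33.3% were higher in PB with the site totals as scale, 50.9% with TMM scaling, 12.4% with DESeq2 and 76.2% with the median window set to 0, a setting added after the data had been seen. The same 5 windows were called higher in PB under all 4.

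The fibrinogen window showed the largest difference of the 6. Fga, Fgb and Fgg encode the chains of the clotting protein fibrinogen, and the RefSeq gene table lists them next to each other between Lrat and Plrg1. Its density in PB livers ran from 1.77 to 12.8 with a median of 10.8, and in SB livers from 1.61 to 17.1 with a median of 4.05. The 12 PB livers numbered 1 to 12 lay between 6.71 and 12.8, all above the SB livers of these numbers, which lay between 1.61 and 5.63. The highest SB value, 17.1, came from SB liver 13, where it rests on 2 sites. The lowest PB value, 1.77, rests on 1 site in the shallow PB liver 13. The fitted log2 difference was 1.40 (SE 0.17, 2.64-fold, edgeR adjusted p = 3e-14), and 15 of 17 PB livers lay above the SB median. It exceeded that of 99.6% of windows tested.

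Hp encodes haptoglobin, which binds free haemoglobin, and the RefSeq gene table lists it between Txnl4b and Dhodh. Density in the Hp window ran from 2.94 to 12.8 in PB livers (median 7.38) and from 0 to 8.23 in SB livers (median 3.46). Of the PB livers, 7 lay above every SB liver and 16 above the SB median, while the ranges overlapped. Both SB livers without a site, SB livers 4 and 13, were shallow, and a count of 0 there allows densities of up to 4.41 and 32.1 (3 counts, counting error only). The difference was 1.07 (log2, SE 0.21, 2.10-fold, edgeR adjusted p = 5.7e-06).

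The Saa window holds genes of serum amyloid A, a lipoprotein-bound acute-phase protein, in the order Saa3, Saa4, Saa1 and Saa2 between Saal1 and Hps5 in the gene table. PB livers ran from 3.69 to 19.0 (median 10.1) and SB livers from 2.94 to 10.7 (median 6.02). The highest SB value came from 1 site in SB liver 13. In livers 1 to 12 the groups overlapped in a narrow range, with PB from 8.36 upwards and SB up to 8.90. The difference was 0.83 (log2, SE 0.17, 1.78-fold, edgeR adjusted p = 1.5e-05).

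The carriers showed differences of like size. In the window of Ttr, the gene of transthyretin, which carries thyroxine and retinol-binding protein, PB livers ran from 3.17 to 15.3 (median 10.2) and SB livers from 3.52 to 10.7 (median 5.44). Of the PB livers, 8 lay above every SB liver. The difference was 0.89 (log2, SE 0.16, 1.85-fold, edgeR adjusted p = 1.7e-06). In the window of Trf, the gene of the iron carrier transferrin, PB livers ran from 4.64 to 15.5 (median 11.2) and SB livers from 3.53 to 32.1 (median 6.11). The SB maximum came from 3 sites in SB liver 13, and SB livers 1 to 12 reached 8.46. The difference was 0.79 (log2, SE 0.17, 1.73-fold, edgeR adjusted p = 2.8e-05).

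The Orm window went the other way. Orm1, Orm3 and Orm2 encode orosomucoid, also called alpha-1-acid glycoprotein, and lie between Col27a1 and Akna in the gene table. PB livers ran from 0 to 12.3 (median 2.36) and SB livers from 0 to 11.8 (median 3.83), so the groups overlapped over nearly their whole range. The difference was -0.72 (log2, SE 0.26, edgeR adjusted p = 0.018), against a median of -0.36 over all windows. With TMM scaling it was -0.57 (edgeR adjusted p = 0.082), with limma-voom -0.61 (adjusted p = 0.062), and with the median window set to 0 it was -0.36 (edgeR adjusted p = 0.31), none of which passed.

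**Figure D1:**
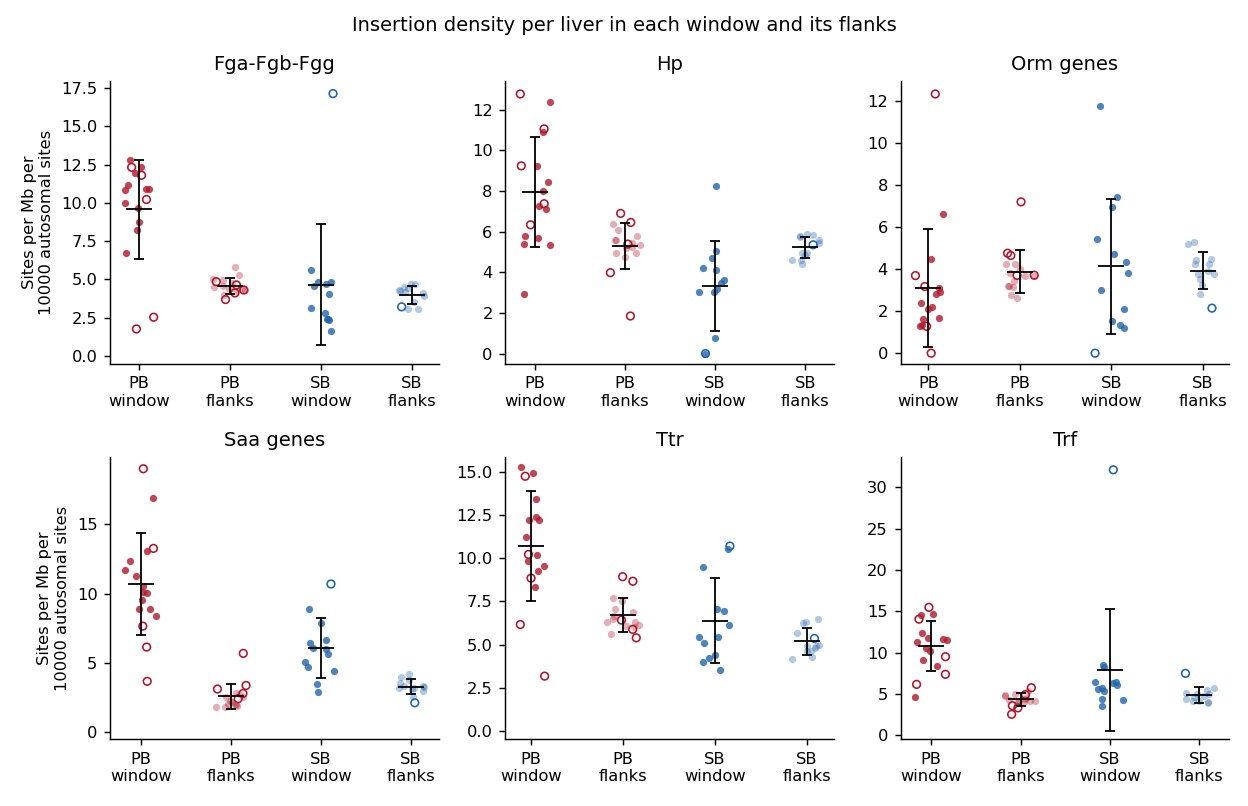
Insertion density per liver (sites per Mb per 10000 autosomal sites) in each window and in its flanks of 1 Mb on each side, for 17 PB livers (red) and 13 SB livers (blue). Open circles are livers numbered 13 and above, black bars are mean and SD, and the PB window mean lies above the SB window mean in every panel except that of the Orm genes.

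Each window was then set against its own flanks, which compares it with neighbouring sequence on the same chromosome in the same liver. PB sites were denser in the window than in the flanks in 5 of the 6 windows and sparser in the Orm window (edgeR quasi-likelihood test over 11603 windows, adjusted p under 0.05). Of all windows tested, 25.5% were called higher and 48% lower than their flanks in PB, and the Orm window, at -0.48 on the log2 scale, lay close to the median of all windows, -0.43. For SB, the Saa and Trf windows were called higher and the Hp window lower than the flanks, against 19.9% called higher and 27.4% called lower among all windows.

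With flanks of 1 Mb, the Saa window had the highest ratio of the 6 in both systems. With flanks of 0.5 Mb the PB ratio was higher in the fibrinogen window, and with flanks of 2 Mb the PB ratio was higher at Trf and the SB ratios were higher at Ttr and Trf. In the Saa window PB density was 10.7 ± 3.7 against 2.61 ± 0.92 in the flanks of 1 Mb (SD, n = 17). The fit gave 4.39-fold (log2 2.13, SE 0.12, edgeR adjusted p = 1.8e-65), with the window above the flanks in 17 of 17 livers. The corresponding SB values were 6.08 ± 2.14 and 3.30 ± 0.56 (SD, n = 13), 1.74-fold in the fit (log2 0.80, SE 0.16, edgeR adjusted p = 1.1e-05), with the window higher in 11 of 13 livers. The PB value exceeded that of 98.9% and the SB value that of 94.2% of all windows.

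In the Trf window PB density was 10.8 ± 3.0 against 4.34 ± 0.78 in the flanks (SD, n = 17), 2.41-fold in the fit (edgeR adjusted p = 7.8e-27), with the window higher in 17 of 17 livers. SB density was 1.30-fold that of the flanks at Trf (edgeR adjusted p = 0.033), a log2 ratio of 0.38. The call was lost with flanks of 0.5 Mb (log2 0.20, edgeR adjusted p = 0.32) and with a support of at least 10 (log2 0.30, adjusted p = 0.12), and narrowly without SB liver 13 (log2 0.35, adjusted p = 0.051). In the fibrinogen window PB density was 9.58 ± 3.21 against 4.58 ± 0.52 in the flanks (SD, n = 17), 2.15-fold in the fit (edgeR adjusted p = 6.3e-24). SB showed 4.66 ± 3.95 against 4.01 ± 0.59 there (SD, n = 13), with a fitted ratio of 0.93 (95% interval 0.74 to 1.17, edgeR adjusted p = 0.62). SB liver 13 raised that window mean, and SB livers 1 to 12 showed 3.62 ± 1.30 against 4.07 ± 0.56 (SD, n = 12).

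At Ttr the PB window was 1.69-fold denser than its flanks (10.7 ± 3.2 against 6.71 ± 1.00, SD, n = 17, edgeR adjusted p = 2e-11), and the SB ratio was 1.20 (95% interval 0.97 to 1.48, edgeR adjusted p = 0.15). At Hp the PB ratio was 1.38 (7.95 ± 2.71 against 5.29 ± 1.13, SD, n = 17, edgeR adjusted p = 0.00058) and the SB ratio was 0.68 (3.34 ± 2.22 against 5.23 ± 0.52, SD, n = 13, edgeR adjusted p = 0.0075). The PB ratio of the Orm window was 0.71 (edgeR adjusted p = 0.017) and its SB ratio 1.04 (95% interval 0.81 to 1.34, edgeR adjusted p = 0.82). With flanks of 0.5 Mb on each side, the PB calls at Hp, Ttr and Orm were lost (edgeR adjusted p = 0.41, 0.29 and 0.22), while those at the fibrinogen, Saa and Trf windows were kept. With these flanks the fibrinogen ratio was 2.45 on the log2 scale in PB, in place of 1.10, and 0.61 in SB (edgeR adjusted p = 0.0049).

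The difference between the systems in this local ratio was tested directly. It was larger in PB than in SB in 5 of the 6 windows, against 12.4% of all windows called higher and 20.8% called lower. The log2 differences were 1.34 (SE 0.18, edgeR adjusted p = 1.2e-11) at Saa, 1.21 (SE 0.19, adjusted p = 5.1e-09) at fibrinogen and 1.02 (SE 0.22, adjusted p = 6e-05) at Hp. They were 0.89 (SE 0.18, edgeR adjusted p = 1.5e-05) at Trf and 0.49 (SE 0.18, adjusted p = 0.024) at Ttr. With flanks of 0.5 Mb the Ttr difference was 0.23 and its call was lost (edgeR adjusted p = 0.38), and the other 4 calls were kept. The Orm window did not pass (-0.54, SE 0.27, edgeR adjusted p = 0.11). The median of all windows was -0.23. When positions found in more than 1 liver were left out, only the fibrinogen window kept its call (log2 0.73, edgeR adjusted p = 0.044). That removal keeps 60.9% of PB and 96.1% of SB sites, so it does not treat the systems alike.

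**Figure D2:**
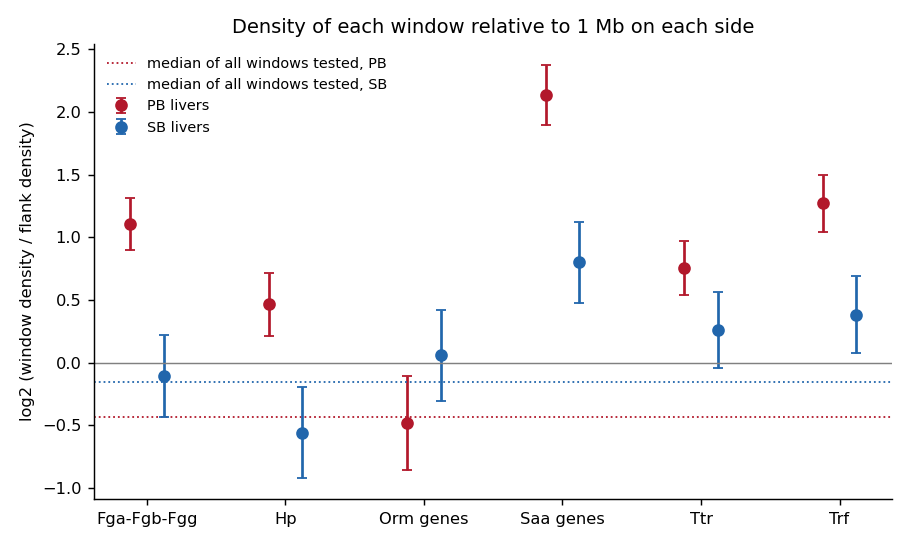
Log2 ratio of window density to flank density for PB (red) and SB (blue) with 95% intervals from the edgeR fit. Dotted lines mark the medians of all 11603 windows tested, -0.43 in PB and -0.16 in SB, and every window except that of the Orm genes has a PB ratio above 0.

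Within the windows, PB insertions were gathered in short stretches. Windows were divided into bins of 10 kb, and the densest bin of a group was chosen in its odd-numbered livers and read in its even-numbered livers, which had no part in the choice. The PB bin chosen in this way was again the densest of its window in the even-numbered livers in 5 of the 6 windows and ranked 2 in the Saa window. For SB the chosen bins ranked 4 (fibrinogen), 11 (Hp), 7 (Orm), 13 (Saa), 1 (Ttr) and 14 (Trf) in the even-numbered livers, and SB liver 13, where 1 site weighs heavily, had a part in the choice. Without SB liver 13 the ranks were 18, 11, 7, 13, 1 and 14. The SB bins chosen with liver 13 held 3, 1, 2, 1, 5 and 1 sites in the 6 even-numbered SB livers. The PB bins, in the same order of windows, held 22, 30, 15, 20, 23 and 14 sites in the 8 even-numbered PB livers. These include the shallow PB livers 14 and 16 (27118 and 15780 autosomal sites), where 1 site also weighs heavily in the mean and SD of a bin. The SB counts are too low to rank bins, so these ranks do not show whether SB peaks recur.

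In the Hp window the PB bin lay from 110.3 to 110.31 Mb. The 8 even-numbered PB livers held a density of 58.7 ± 49.7 there (SD, n = 8), with 7 of the 8 livers holding a site, against 5.42 on average in the other bins of the window. The 13 SB livers held 3.74 ± 5.85 in the same bin (SD, n = 13, exact two-sided permutation test against the even-numbered PB livers, p = 0.000688). This bin and the next one, up to 110.32 Mb, contained 113 of all 180 PB sites of the window and 9 of its 66 SB sites. The stretch was chosen on these PB values, so this split is a description.

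In the fibrinogen window the PB bin lay from 82.95 to 82.96 Mb, with 43.0 ± 26.6 in even-numbered PB livers (SD, n = 8) and 1.84 ± 4.69 in SB livers (SD, n = 13, exact two-sided permutation test, p = 0.000265). Here the dense stretch was broader. The 6 bins from 82.91 to 82.97 Mb each held at least 25% as many PB sites as the densest bin. They cover 24% of the window and contained 245 of its 303 PB sites (80.9%) and 25 of its 88 SB sites (28.4%). The remaining bins of the window had a PB density of 2.45 ± 1.79 (SD, n = 17) and an SB density of 4.84 ± 5.53 (SD, n = 13). SB liver 13 raised this SB mean, since its 2 sites in the window both lay in the remaining bins and 1 site weighs heavily in that liver. The stretch was chosen on these values, so this split is a description.

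The Orm window, though sparse in PB as a whole, also had such a stretch. Its bin from 63.26 to 63.27 Mb held 30.4 ± 24.5 in even-numbered PB livers (SD, n = 8), with 15 of their 27 window sites, and 2.54 ± 4.91 in SB livers (SD, n = 13, exact two-sided permutation test, p = 0.00118). Over all livers 29 of the 63 PB sites and 3 of the 80 SB sites of the window lay in it. The rest of the window had a PB density of 1.92 ± 2.40 (SD, n = 17) and an SB density of 4.21 ± 3.35 (SD, n = 13). The bin was chosen in some of these PB livers, so this split is a description.

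The Ttr bin from 20.79 to 20.8 Mb held 42.7 ± 24.6 in even-numbered PB livers (SD, n = 8) and 6.67 ± 9.68 in SB livers (SD, n = 13, exact two-sided permutation test, p = 0.000649). It lay within 4 dense bins from 20.77 to 20.81 Mb, with 149 of 272 PB and 21 of 113 SB sites. These bins were chosen on the same PB values, so this split is a description. The Trf bin from 103.08 to 103.09 Mb held 31.6 ± 15.4 in even-numbered PB livers (SD, n = 8), all of which had a site there, and 9.22 ± 14.6 in SB livers (SD, n = 13, exact two-sided permutation test, p = 0.00493). Trf had further PB bins of 20 sites or more, from 103.09 to 103.1 Mb, from 103.11 to 103.13 Mb and from 103.16 to 103.19 Mb.

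The Saa window had several separate PB peaks. The chosen bin, from 46.48 to 46.49 Mb, held 32.1 ± 23.8 in even-numbered PB livers (SD, n = 8) and 4.92 ± 6.50 in SB livers (SD, n = 13, exact two-sided permutation test, p = 0.00182). Over all livers it held 51 PB sites, and the bins from 46.38 and from 46.44 Mb held 44 each, against 2 and 6 SB sites. The bin just below the 46.38 Mb peak, from 46.37 Mb, held 2 PB and 11 SB sites. The 6 tests of the chosen bins are unadjusted and were added after the data had been seen. These bins were chosen for a high PB density, and no bin chosen in SB was tested. The tests therefore compare the systems at PB peaks only and do not show which system has the stronger peaks. Gene positions in GRCm39 were not used here, so the bins were not assigned to genes, exons or promoters. Among all 199692 autosomal bins of 10 kb with a PB site, the fibrinogen and Hp bins ranked 969 and 1020 by their number of PB sites, those of Saa and Ttr both 1529, that of Trf 1972 and that of Orm 6295.

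**Figure D3:**
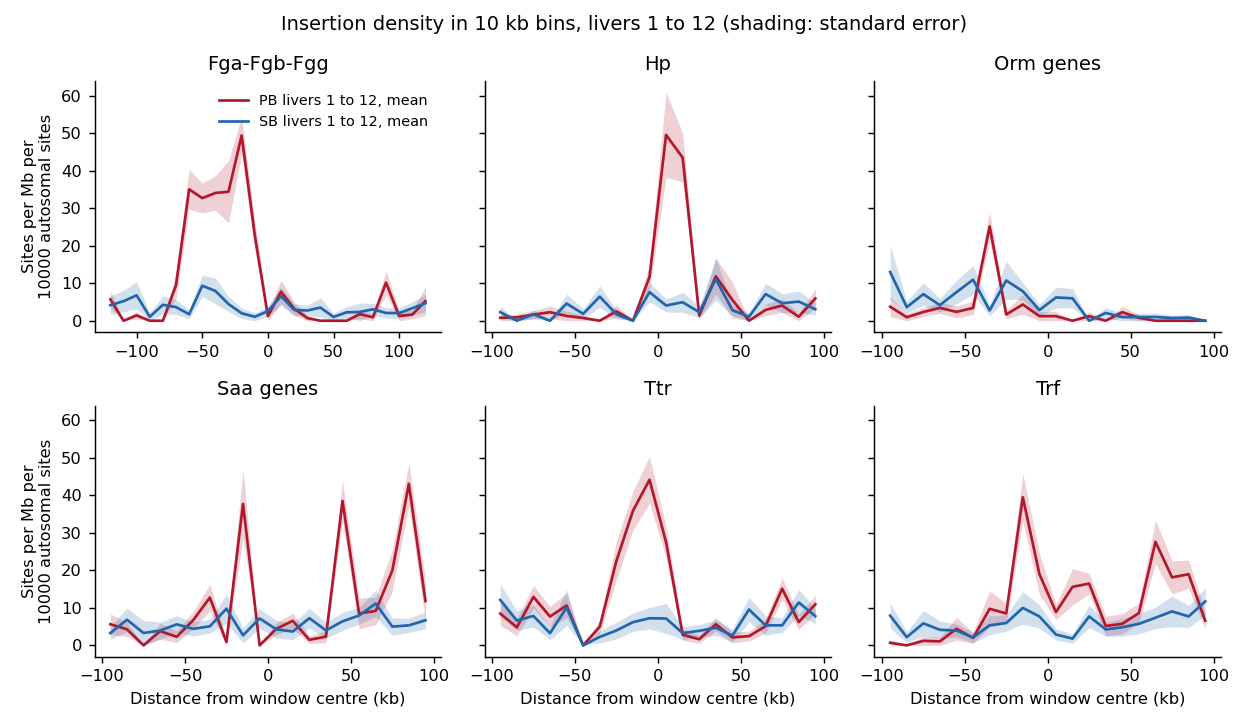
Mean insertion density (sites per Mb per 10000 autosomal sites) in 10 kb bins against distance from the window centre in kb, for PB livers 1 to 12 (red) and SB livers 1 to 12 (blue), with the standard error shaded. PB forms 1 or more peaks in every panel, including that of the Orm genes, and the highest SB bin lies below the highest PB bin in every panel.

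Reuse of the same target position by different livers was examined next, with strand ignored. The 6 windows held 838 PB positions, of which 237 were found in at least 2 PB livers, 98 in at least 3 and 31 in at least 5. SB had 568 positions, 3 of them shared by 2 livers and 0 by 3. The PB position found in most livers was in the fibrinogen window, at chr3:82961270-82961273, in 10 of 17 livers with 4 records on the plus and 8 on the minus strand and a median support of 47. Support is the whole number deposited with each site. What it counts is not given in the sources used here, and it was taken as reads.

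Other much reused PB positions were chr3:82958247-82958250 (8 livers) and chr3:82927524-82927527 (7 livers) in the fibrinogen window, and chr8:110311241-110311244 (8 livers), chr8:110304028-110304031 and chr8:110311934-110311937 (7 livers each) at Hp. In the Saa window chr7:46388111-46388114 and chr7:46380943-46380946 were each found in 7 livers. In the Ttr window 3 positions were found in 7 livers each, of which chr18:20793890-20793893 and chr18:20793901-20793904 are close neighbours. In the Orm window the position found in most livers, chr4:63261897-63261900, was in 5, and the other named ones, starting at 63264056 and 63263487, in 4 each, all in the bin from 63.26 to 63.27 Mb. The Trf position found in most livers, chr9:103182084-103182087, was in 6.

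**Figure D4:**
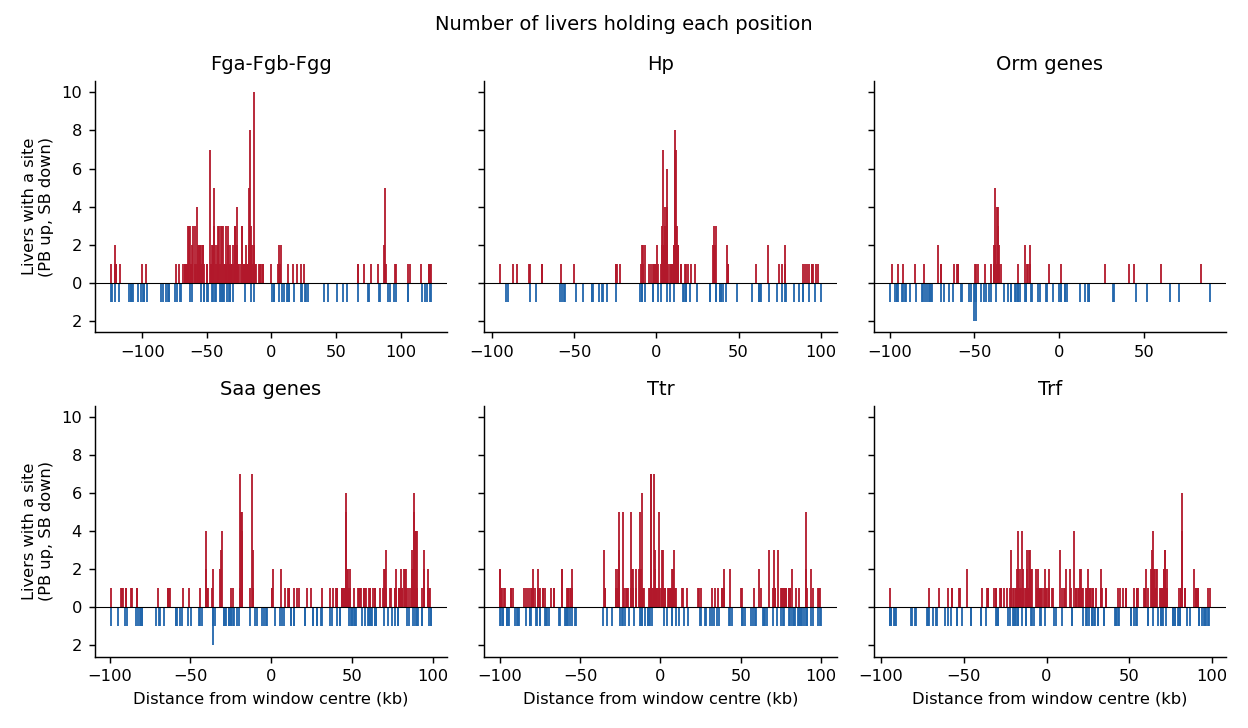
Number of livers holding each position, PB upwards in red and SB downwards in blue, against distance from the window centre in kb. PB positions reach 10 livers in the fibrinogen window and 8 at Hp, and no SB position exceeds 2 livers.

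The share of reused positions was higher in the window than in its flanks for PB in 5 of the 6 windows, all but Orm. Reuse is counted through the other livers, so the livers are not independent in these tests. A window denser than its flanks also offers more chances of reuse. In the Saa window 55.2% ± 14.5 of a PB liver's positions were also found in another PB liver, against 29.9% ± 8.0 in the flanks (SD, n = 15 livers with at least 5 positions in the window), higher in 14 of 15 livers (exact two-sided sign-flip test, p = 0.000122). The shares were 63.8% ± 17.4 against 45.1% ± 3.9 at Hp (SD, n = 13, exact p = 0.00317) and 55.1% ± 12.5 against 42.0% ± 7.3 in the fibrinogen window (SD, n = 15, exact p = 0.00946). They were 54.6% ± 16.7 against 42.7% ± 5.9 at Ttr (SD, n = 14, exact p = 0.014) and 47.5% ± 11 against 38.4% ± 5.9 at Trf (SD, n = 14, exact p = 0.0188). In livers 1 to 12 alone the Ttr and Trf differences did not pass (exact p = 0.091 and 0.078). Only 3 PB livers had enough positions in the Orm window (35.6% against 36.1%, exact p = 1), where the smallest p that 3 livers allow is 0.25. Over all autosomes the PB share was 38.6% ± 1.9 (SD, n = 17).

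SB positions were rarely reused. Of 571 SB liver positions in the 6 windows, 6 were reused, against 187 of 4864 in the flanks and 3.96% ± 0.18 per liver over all autosomes (SD, n = 13). None of the SB positions in the fibrinogen, Hp, Ttr and Trf windows was reused, which allows shares of up to 3.41%, 4.55%, 2.65% and 2.63% (3 counts). The pooled SB shares of their flanks were 5.23%, 4.27%, 4.64% and 3.36%, and at Hp the limit lies above the flank share. The limits cover counting error only and take the livers as independent. By counting error alone the limits lie below the flank shares in the fibrinogen, Ttr and Trf windows. Because the livers are not independent, a share as high as that of the flanks was not taken as excluded in any of these windows. In the Orm window 4 of 80 SB positions and in the Saa window 2 of 110 were reused (exact p = 0.266 and 0.969). The reuse tests, 6 for PB and 6 for SB, are unadjusted. Of the SB sign-flip tests 4 had p under 0.05, in the windows without a reused position. No liver could lie above its flanks there. Those p depend only on the number of livers with reuse in the flanks, and nothing is drawn from them. A position counts as reused through other livers of the same group, so the livers are not independent here, and a denser region offers more chances of reuse. An SB site on the central TA of a PB target occurred 3 times, 1 time in the fibrinogen window and 2 times in the Ttr window. This number was not set beside that over all autosomes.

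Insertions faced both ways in the windows. Of 1329 PB sites 695 (52.3%) and of 571 SB sites 307 (53.8%) were on the minus strand, against liver averages of 50.9% ± 0.5 (SD, n = 17) and 51.3% ± 0.8 (SD, n = 13) over all autosomes. No PB window passed a sign-flip test against the liver's own autosomal share, with p from 0.225 (Orm) to 0.718 (Trf). For SB, 54 of 88 sites in the fibrinogen window and 52 of 80 in the Orm window were on the minus strand (exact sign-flip tests over 13 and 12 livers, unadjusted p = 0.0215 and 0.0195), and the other 4 windows did not pass. With a support of at least 10 the SB difference in the fibrinogen window did not pass (exact p = 0.056). Of the 237 reused PB positions, 148 were found on both strands, and 42 times both strands of a position were found within 1 PB liver. Of these 42, 13 were in the Hp window and 3 to 9 in each other window. These counts were not set beside those over all autosomes, so nothing particular to the windows is read from them.

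The support of sites in the windows was close to that of other sites. The median was 42 to 53 across the 6 windows in PB and 43.5 to 49 in SB, against 46 and 47 over all autosomes. The share of window sites above the median of their own liver differed from the autosomal share in 1 of 12 tests, for PB in the Orm window, where 23 of 63 sites lay above it (exact two-sided sign-flip test over 16 livers, unadjusted p = 0.0284). In livers 1 to 12 alone that difference did not pass (exact p = 0.17). Sites among the best supported 1% of their liver numbered 6 of 180 PB sites at Hp (3.33%, exact 95% binomial interval 1.23% to 7.11%) and 6 of 272 at Ttr (2.21%, 0.81% to 4.74%). For SB they numbered 3 of 80 in the Orm window (3.75%, 0.78% to 10.6%) and 3 of 113 at Ttr (2.65%, 0.55% to 7.56%). The other windows held 0 to 3 such sites in either group, and the share over all autosomes was 1.02% in PB and 1.03% in SB. Reads were amplified without molecular identifiers, so these intervals and the limits behind counts of 0 cover counting error only.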

How the data were processed

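Site tables of 30 livers were used. The deposited liver tables, made by the authors, give chromosome, position, strand and a whole number per site in 1 field, whose smallest value is 3; cutadapt, BWA and GRCm39 are named without versions or order in the submitters' processing notes. Deposited merged tables hold a count of records per position for livers 1 to 12, and matched the liver tables at all 833852 PB and 925116 SB positions. The filter behind the tables is not given in the sources used here.

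Autosomal sites were counted in the 6 windows and in tiles of 200 kb elsewhere. Windows averaging 1 or more sites per liver (and, for the flank ratio, 10 flank sites) were tested with the edgeR 4.0.16 quasi-likelihood test in R 4.3.3, with autosomal sites per liver as library size, or with flank sites plus 1, scaled to length, as offset. Standard errors were derived from the F statistic. Alternatives used limma 3.58.1 and DESeq2 1.42.0. Exact tests used scipy 1.17.1 in Python 3.11.15. The scripts were tested on simulated data. A simulated 2-fold difference between PB and SB was recovered in 59.3% of changed windows for density and in 58% for the flank ratio difference. A 1.5-fold one was recovered in 20.3% and 13.3%, so differences of that size were often missed in the simulation. The simulation left 11403 of 11603 windows unchanged and used 1 dispersion for all. In the data 4601 windows were called for density, so the recovered shares do not measure how often real differences were missed.

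The windows and lists were chosen with earlier results of these data known, and no p was adjusted over them alone. Named were the 6 windows, the densest bin per window and group and up to 3 positions found in at least 3 livers. Liver numbers were not taken to pair the groups: of 13 pairs none correlated above 0.1 over windows (range -0.0241 to 0.0438). Other plasma protein genes listed for comparison, and gene positions, needed an annotation of GRCm39 and were not analysed here.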

Additional observations from a re-analysis of the deposited data

Results flagged for a closer look

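The ratio of window density to flank density differed between PB and SB by the test of the difference itself in 5 windows (edgeR quasi-likelihood test, adjusted over 11603 windows). The log2 difference, PB minus SB, was 1.21 for the fibrinogen window, 1.02 for the Hp window, 1.34 for the Saa window, 0.49 for the Ttr window and 0.89 for the Trf window. PB livers 13 to 17 and SB liver 13 are much shallower than most others, and the same 5 windows were called with livers 1 to 12 alone. With flanks of 0.5 Mb the Ttr difference was 0.23 and was not called (adjusted p = 0.38). The number of TTAA and TA targets per window was not tested.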

How the results depend on the processing

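Without positions shared between livers, windows called between PB and SB numbered 810 in place of 4601, and those called for the flank ratio difference 441 in place of 3850. That setting ended the density calls of Hp, Saa, Ttr and Trf (log2 0.19, 0.33, 0.44 and 0.55) and turned the PB flank ratio of Hp to -0.23 (log2). A minimum mean of 3 sites left 3443 windows called for the SB flank ratio, against 5479, in which fewer windows were tested. Flanks of 0.5 Mb turned the SB ratio to 0.61 in the fibrinogen window (called), -0.074 in the Orm window and -0.10 at Ttr (log2), and flanks of 2 Mb made the SB calls of fibrinogen (-0.42) and Ttr (0.73). They also made the Orm flank ratio difference pass (-0.93). Livers 1 to 12 alone turned differences that had not passed: reuse in PB at Orm to 1.91 percentage points, the PB minus-strand share to -2.60 at Hp, 1.10 at Saa and 3.38 at Trf, and the PB support share in the fibrinogen window to -3.26. A support of at least 10 turned PB reuse at Orm to 1.19 and the SB support shares to 0.312 at Orm and 2.55 at Trf, and merging sites within 10 bp turned the Orm one to 0.425; none passed. With the replicate block, 4009 windows were called for density and 3494 for the flank ratio difference, and every window kept its call. The causes were not tested. Of 78 alternatives of the window densities 71 kept direction and call. SB liver 13 holds too few sites to measure a window.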

Other observations

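The shallow PB livers 13 to 17 gave pooled window to flank ratios of 2.81 at Trf, 2.78 at Saa, 1.89 in the fibrinogen window, 1.85 at Hp, 1.37 at Ttr and 0.69 in the Orm window. The pooled ratios of PB livers 1 to 12 were 2.41, 4.84, 2.23, 1.34, 1.75 and 0.73 in the same order. The difference between these sets of livers was not tested.

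The flanks of a window were not alike on both sides. At the Orm genes the pooled PB density was 5.33 in the flank below and 1.95 in the flank above the window, and SB had 5.36 and 2.85. At Saa the SB values were 4.32 and 2.41, while the PB values were 2.58 and 2.09.

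Taken as a share of all autosomal sites, the 6 windows together received 0.110% ± 0.012 in PB livers (SD, n = 17) and 0.0674% ± 0.0260 in SB livers (SD, n = 13). The SB maximum of 0.150% was in SB liver 13, whose share rests on few sites.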
